A study of Homo sapiens with 12 samples.

Results

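The E2F transcription factors and their DP partners were followed across a series in which PANC-1 cells received small RNA oligos that add or inhibit the microRNA miR-10b. Every probe annotated to E2F1 to E2F8, TFDP1 or TFDP2 was taken, which gave 13 of the 47231 probes on the array and 10 of its 20046 gene symbols. PANC-1 is an established line of human pancreatic ductal carcinoma cells. All cultures were grown in DMEM with fetal bovine serum, penicillin and streptomycin and were harvested 20 h after transfection with premir miR-10b (a synthetic precursor that adds miR-10b), antimir-10b (an inhibitor directed at it), the premir control oligo or the antimir control oligo. Each of these 4 groups holds 3 biological replicates on Illumina BeadChip arrays, 12 arrays in all. The series rests on a single cell line and a single time, and in RNA from a whole culture a change in the share of cells in a cycle phase and a change in RNA per cell cannot be told apart.

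E2F proteins bind the promoters of genes for the G1 to S transition, most of them as heterodimers with a DP protein. E2F1, E2F2 and E2F3 are known as activators that the retinoblastoma protein holds in check until cyclin-dependent kinases release them. E2F4 and E2F5 act mainly as repressors with the pocket proteins RBL1 and RBL2, and E2F6 represses within polycomb complexes without a pocket protein. E2F7 and E2F8 are the atypical members. They bind DNA through a pair of DNA-binding domains without DP, and they repress G1 to S genes, E2F1 among them, from S phase on.

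Premir miR-10b replicate 2 stood apart from the rest of the arrays. It had 29.5% of probes detected, against 39.2% to 41.3% on the other 11, and its median correlation with them was 0.797, where the lowest among the other 11 was 0.980. Values are therefore given with 12 arrays and with 11 arrays, without that replicate. Precision is limited by how few arrays there are per group. HTATIP2, which earlier work in pancreatic tumour cells describes as repressed by miR-10b, had a log2 change after premir miR-10b of -1.17 with 12 arrays and -1.06 with 11, with limma adjusted p values of 0.0137 and 4.14e-04. The epithelial keratins KRT7, KRT8, KRT18 and KRT19 were detected on at least 11 arrays. Of 16 markers of leukocytes, endothelium, fibroblasts, acinar cells and islets with a probe, 13 were detected on fewer than 3 arrays, while CD14 and COL1A1 were detected on 12. The part of these markers in the results was not tested. CDKN2A, a CDK inhibitor gene known to be deleted in PANC-1, was detected on 0 arrays.

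Of the 13 probes, 12 passed the filter (detection p under 0.05 on at least 3 arrays) and all 10 genes were measured. E2F6, TFDP1 and TFDP2 have 2 probes each, and the probe with the higher mean stands for the gene. The second E2F6 probe was detected on 0 arrays, with a raw signal of 45.8 to 67. Raw signals of E2F1 (93.3 to 176.8 on the 11 arrays), E2F8 (84.5 to 128.3) and the main TFDP2 probe (102.7 to 171.9) lay low, where the median over all probes was 64.5 to 76.3. E2F1 and E2F8 were not detected on premir miR-10b replicate 2. Levels below are normalized log2 signals, changes are differences of their group means, and a call is a limma p adjusted by Benjamini-Hochberg over all 17369 features under 0.05.

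**Figure D1:**
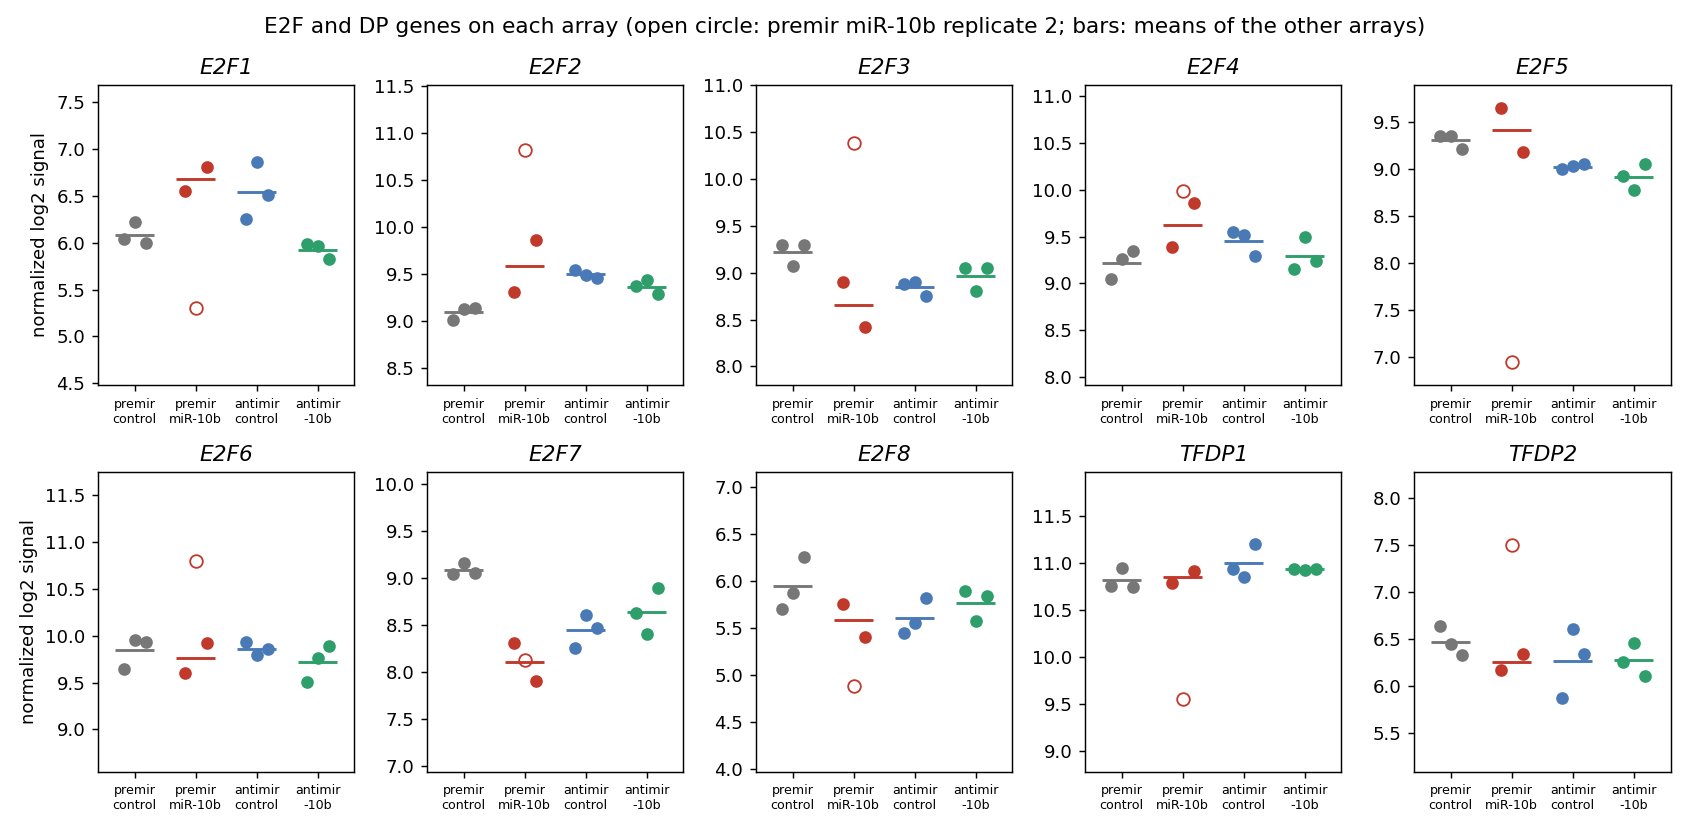
Normalized log2 signal of each of the 10 genes on each array, by oligo group; points are arrays, bars are group means without premir miR-10b replicate 2 (open circles), and every panel spans the same number of log2 units. E2F7 lies at 9.05 to 9.16 in premir control and at 7.91 to 8.31 on the 3 premir miR-10b arrays.

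E2F7, an atypical repressor, fell after premir miR-10b with 11 arrays and was the only member called in that comparison. Its levels in premir control were 9.05, 9.16 and 9.05, and on premir miR-10b replicates 1, 2 and 3 they were 8.31, 8.12 and 7.91. All 3 treated arrays lay below all 3 controls, and E2F7 is the member for which replicate 2, with a raw signal of 136.6 against 268.1 and 488.5, fell between the other replicates once normalized. The change was -0.98 ± 0.17 (SE), or 1.97-fold lower, with 11 arrays and a limma adjusted p of 0.0118. With 12 arrays it was -0.97 ± 0.17 (SE) with a limma adjusted p of 0.0715, which misses the threshold. With 11 arrays 1 of the 10 members was called, where 0.714% of all features were called and 0.484% were called lower. With 12 arrays it was 0 members and 0.127% of features. An unadjusted p under 0.05 was reached by 5 members and 7.94% of features with 11 arrays, and by 4 members and 8.47% with 12. Leaving premir miR-10b replicate 3 out of the 11 as well moved the change to -0.78 and the limma adjusted p to 0.174, where a single premir miR-10b array is left and is assumed to vary like the other groups. Without premir control replicate 2 or 3 the limma adjusted p was 0.063 and 0.0521. Under the authors' scaling or median centring it was 0.205 and 0.202. E2F7 stands on a list of proposed miR-10b targets used in earlier work on these arrays, so its fall is no independent evidence about that list.

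The size of the E2F7 change differed with the control it was set against. In antimir control E2F7 read 8.26, 8.61 and 8.47, all below premir control, and in antimir-10b it read 8.62, 8.40 and 8.89. The order of the group means was premir control (9.09 ± 0.07, SD, n = 3), antimir-10b (8.64 ± 0.25, SD, n = 3), antimir control (8.45 ± 0.18, SD, n = 3) and premir miR-10b (8.11 ± 0.28, SD, n = 2 in the 11 arrays). Antimir control against premir control gave -0.64 ± 0.15 (SE) with a limma adjusted p of 0.152 with 11 arrays and 1.00 with 12, so the difference between the control oligos was not called. That difference was called with the 6 control arrays fitted alone, at a limma adjusted p of 0.0422, and with array weights. In a comparison added after these levels had been seen, premir miR-10b minus antimir control gave E2F7 a change of -0.34 (95% interval -0.70 to 0.03) with a limma adjusted p of 0.635, and the groups overlapped. By that comparison 0 members were called, against 0.363% of features with 11 arrays and 0.0461% with 12. An unadjusted p under 0.05 was reached by 1 member, E2F5, and 8.33% of features with 11 arrays, and by 0 members and 8.17% with 12. E2F5 was also the 1 member whose groups did not overlap with 11 arrays, against 21.2% of features, and with 12 arrays there were 0, against 11.8%. Under the authors' scaling the E2F5 groups overlapped with 11 arrays. In the same comparison with 11 arrays HTATIP2 changed by -1.08 with a limma adjusted p of 4.41e-04. The comparisons share control arrays, so their values are not independent of each other.

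E2F8, the other atypical repressor, was not called in any comparison. Its levels were 5.71, 5.88 and 6.25 in premir control, 5.76, 4.88 and 5.41 on premir miR-10b replicates 1, 2 and 3, 5.45, 5.56 and 5.82 in antimir control and 5.90, 5.57 and 5.84 in antimir-10b. The groups overlapped in each comparison with its control, and the level on replicate 2 comes from a probe that was not detected there. The change after premir miR-10b was -0.36 (95% interval -0.76 to 0.03) with 11 arrays, and -0.60 with 12, with limma adjusted p values of 0.700 and 0.448. Antimir-10b minus antimir control was 0.16 (95% interval -0.19 to 0.51) with 11 arrays.

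E2F1, the activator best known for driving S phase entry, had changes of opposite sign in the premir and antimir comparisons. It read 6.04, 6.22 and 5.995 in premir control and 6.55 and 6.81 on premir miR-10b replicates 1 and 3. On replicate 2, where it was not detected, it read 5.30. The antimir control levels were 6.25, 6.86 and 6.505, and those of antimir-10b were 5.99, 5.96 and 5.83. Without replicate 2 the premir miR-10b arrays lay above all premir controls, and the antimir-10b arrays lay below all antimir controls. Neither change was called alone. The premir change was 0.59 ± 0.17 (SE) with a limma adjusted p of 0.200 with 11 arrays, and 0.13 with an adjusted p of 0.806 with 12. The size of the E2F1 change also differed with the control. Antimir control minus premir control was 0.45 (95% interval 0.13 to 0.78) with a limma adjusted p of 0.359 with 11 arrays, and premir miR-10b minus antimir control was 0.14 (95% interval -0.22 to 0.50) with a limma adjusted p of 0.880, where the groups overlapped. The antimir change was -0.61 ± 0.15 (SE) with a limma adjusted p of 0.999 with 11 arrays and 1.00 with 12.

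The difference between these effects was called for E2F1 and for E2F7 with 11 arrays, in opposite directions. For E2F1 the premir effect minus the antimir effect was 1.21 ± 0.23 (SE), with a limma adjusted p of 0.0363. For E2F7 it was -1.17 ± 0.23 (SE), with a limma adjusted p of 0.0450. By its definition this difference includes the gap between the control oligos. That gap, antimir control minus premir control, was 0.45 for E2F1 and -0.64 for E2F7, of the same sign as the difference in each. The difference was called for 2 of 10 members, 1 in each direction, where 0.363% of all features were called, 0.104% higher and 0.259% lower. An unadjusted p under 0.05 was reached by 5 members (E2F1, E2F2, E2F3, E2F4 and E2F7) and by 6.42% of features. With 12 arrays 0 features were called (3.28% had an unadjusted p under 0.05, and 4 of the 10 members, E2F2, E2F4, E2F7 and E2F8). The differences were then 0.75 for E2F1 and -1.17 for E2F7, with limma adjusted p values of 0.734 and 0.457. Both calls lay close to the threshold. When any 1 of the 11 arrays was left out, each of them was kept in 2 of 11 fits, with changes from 1.04 to 1.35 for E2F1 and from -1.37 to -0.97 for E2F7. Where 2 premir miR-10b arrays were left, E2F1 kept its call only without antimir control replicate 1, and E2F7 only without antimir-10b replicate 2. The other of the 2 fits left out premir miR-10b replicate 1. There a single premir miR-10b array is left and is assumed to vary like the other groups.

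The promoters of these 2 genes are shown because the difference between the effects was called for both with opposite sign, and because E2F1 is a known target of E2F factors. The sequences are the 250 bases before the RefSeq gene start (GRCh38.p14), E2F1 at chr20:33686386-33686635 and E2F7 at chr12:77065570-77065819, both on the minus strand. Capitals mark matches, on either strand, to the E2F motif forms TTTCGCGC, TTTGGCGC, TTTCCCGC and TTTGCCGC, where overlapping matches were each counted.

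E2F1: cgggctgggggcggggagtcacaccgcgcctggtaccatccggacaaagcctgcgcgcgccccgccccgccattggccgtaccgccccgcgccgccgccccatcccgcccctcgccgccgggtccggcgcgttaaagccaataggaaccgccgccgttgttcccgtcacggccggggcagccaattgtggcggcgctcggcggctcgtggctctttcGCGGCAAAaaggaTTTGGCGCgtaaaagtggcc
E2F7: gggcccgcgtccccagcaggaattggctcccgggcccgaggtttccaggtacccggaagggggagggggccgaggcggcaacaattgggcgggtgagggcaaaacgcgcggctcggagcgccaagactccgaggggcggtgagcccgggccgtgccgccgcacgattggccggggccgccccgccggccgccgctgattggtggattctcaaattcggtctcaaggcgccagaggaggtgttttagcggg

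E2F1 held 2 matches, from -33 to -26 on the opposite strand and from -20 to -13 on the gene strand, counted from the gene start. E2F7 held none of these letters in this window, which says nothing of other forms of the motif or of positions outside it. Of all 27305 genes with a RefSeq promoter window of this length 3.40% held at least 1 match, and of the 8 members with a window (E2F5 and E2F8 are named only) 4 did, namely E2F1, E2F2, E2F3 in 1 of its 2 windows, and TFDP1. For comparison, the activators E2F2 and E2F3 are given as shorter stretches around their match, E2F2 from chr1:23531243-23531300 on the minus strand and E2F3 from chr6:20401801-20401858 on the plus strand.

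E2F2: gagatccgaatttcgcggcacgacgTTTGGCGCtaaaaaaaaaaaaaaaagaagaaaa
E2F3: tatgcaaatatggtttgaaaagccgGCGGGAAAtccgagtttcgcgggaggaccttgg

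E2F2 and E2F3, the other activators, had changes of opposite sign after premir miR-10b with 11 arrays, and neither was called. E2F2 read 9.01, 9.13 and 9.13 in premir control, and 9.30, 10.82 and 9.86 on premir miR-10b replicates 1, 2 and 3. All 3 treated arrays were above the controls. Its change was 0.49 ± 0.15 (SE) with 11 arrays and 0.91 ± 0.30 (SE) with 12, with limma adjusted p values of 0.270 and 0.448. E2F3 read 9.30, 9.07 and 9.29 in premir control and 8.90, 10.39 and 8.42 on the treated replicates. Replicates 1 and 3 lay below all controls and replicate 2 above them. Its change was -0.56 ± 0.16 (SE) with 11 arrays and 0.01 ± 0.39 (SE) with 12, with limma adjusted p values of 0.186 and 0.984. E2F3 gives rise to long and short proteins from separate starts, and which of them its probe reads was not analysed here.

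In the antimir arm E2F2 read 9.54, 9.49 and 9.45 with the control oligo and 9.37, 9.43 and 9.28 with the inhibitor, so the groups did not overlap, at a change of -0.13 (95% interval -0.42 to 0.16) with 11 arrays. Under the authors' scaling they overlapped, at 731.1 to 839.9 with the control oligo and 731.4 to 819.2 with the inhibitor, and the sign of the change turned. E2F3 read 8.88, 8.90 and 8.75 with the control oligo and 9.05, 8.81 and 9.05 with the inhibitor, which overlap, at a change of 0.12 (95% interval -0.18 to 0.42).

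**Figure D2:**
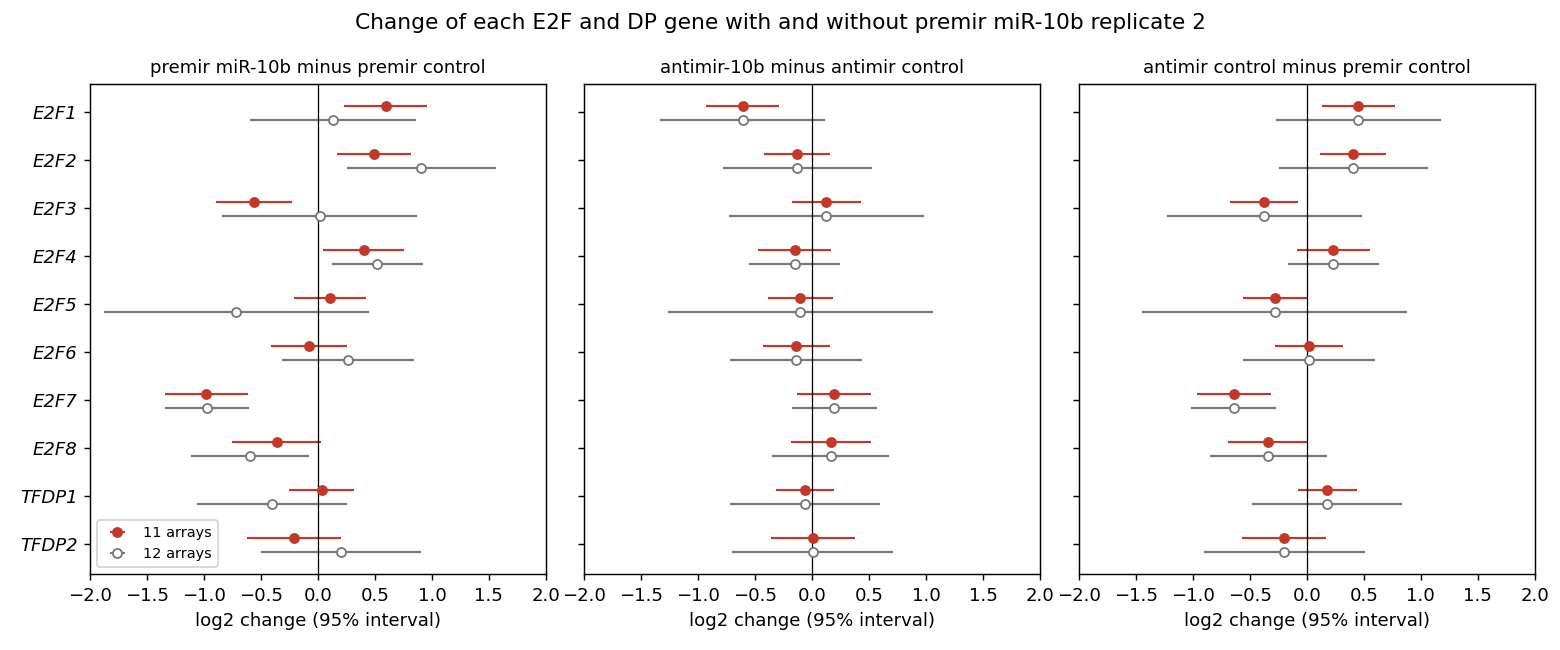
Log2 change of each gene, with its 95% interval from limma, in 3 comparisons, with 11 arrays (filled) and with all 12 (open). E2F7 has nearly the same value, -0.98 and -0.97, with and without premir miR-10b replicate 2, while the value of E2F5 moves from 0.11 with 11 arrays to -0.72 with 12.

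E2F4, E2F5 and E2F6, the repressors that act with pocket proteins or polycomb complexes, were not called in any comparison. E2F4 read 9.05, 9.26 and 9.34 in premir control and 9.39, 9.98 and 9.85 on premir miR-10b replicates 1, 2 and 3, each above every control. Its change was 0.40 ± 0.17 (SE) with 11 arrays and 0.52 ± 0.18 (SE) with 12, with limma adjusted p values of 0.526 and 0.448. In the antimir arm E2F4 read 9.55, 9.52 and 9.29 with the control oligo and 9.16, 9.50 and 9.24 with the inhibitor, and the groups overlapped. E2F5 read 9.35, 9.35 and 9.22 in premir control and 9.65, 6.95 and 9.18 on premir miR-10b replicates 1, 2 and 3. It had a change of 0.11 (95% interval -0.21 to 0.42) with 11 arrays. On premir miR-10b replicate 2 the raw signal of E2F5 was 87.3, against 463.1 to 1142.3 on the other arrays. E2F6 read 9.65, 9.96 and 9.93 in premir control and 9.61, 10.80 and 9.92 on the treated replicates, where replicate 2 lay above all controls and the others within or close to their range. It had a change of -0.08 (95% interval -0.41 to 0.25) after premir miR-10b and -0.14 (95% interval -0.44 to 0.16) after antimir-10b, with 11 arrays. With 12 arrays the premir value of E2F6 was 0.26 (95% interval -0.31 to 0.84), of opposite sign.

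The DP genes were not called in any comparison either. TFDP1, the main dimer partner in many cell types, ran from 10.75 to 11.20 over the 11 arrays at its main probe and from 10.38 to 10.88 at the other. Its change after premir miR-10b was 0.03 (95% interval -0.25 to 0.32) at the main probe and 0.20 at the other with 11 arrays, and with 12 arrays the probes went apart, at -0.40 and 0.03. TFDP2, the second partner gene, had changes of -0.21 and -0.15 at its 2 probes after premir miR-10b and 0.00 and 0.11 after antimir-10b, with 11 arrays. With 12 arrays the premir values were 0.20 and -0.33, so the sign at the main probe turned. TFDP3, a DP gene outside the 10 members, was detected on 0 arrays.

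After antimir-10b 0 of the 10 members were called by limma, with 12 or 11 arrays, and 0 of all 17369 features (percent called 0%). With 12 arrays 0 members and 0.265% of features had an unadjusted p under 0.05, and with 11 arrays 1 member, E2F1, and 2.1% of features did. The groups did not overlap for 2 of 10 members, E2F1 and E2F2, both lower, against 8.64% of features. Under the authors' scaling the E2F2 groups overlapped and the sign of its change turned. After premir miR-10b with 11 arrays 5 of 10 members had groups that did not overlap, E2F1, E2F2 and E2F4 higher and E2F3 and E2F7 lower, against 19.8% of features. With 12 arrays these were 3 members, E2F2, E2F4 and E2F7, against 11.7% of features. For E2F4 this did not hold under the authors' scaling, where premir miR-10b replicate 2 lay below all premir controls. Between antimir control and premir control the groups again did not overlap for 5 of 10, also against 19.8%. E2F1 and E2F2 were higher in antimir control, and E2F3, E2F5 and E2F7 were lower. By limma 0 of these 5 were called, where the calls over all features came to 0.207% with 11 arrays and to 0.023% with 12. All 5 had an unadjusted p under 0.05 with 11 arrays, as did 10.2% of features, and with 12 arrays 1 of them, E2F7, and 2.03% of features did. Both comparisons use the premir control arrays.

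For the contrast of activators with repressors, the mean level of E2F1, E2F2 and E2F3 and the mean level of E2F7 and E2F8 were each taken relative to premir control, and their difference is a description with no test. The difference was 0.12, 0.00 and -0.13 on the premir control arrays and 0.60, 1.72 and 1.09 on premir miR-10b replicates 1, 2 and 3. In antimir control it was 0.76, 0.72 and 0.48, and in antimir-10b it was 0.26, 0.46 and 0.07. All premir miR-10b and antimir control arrays lay above all premir control arrays, and their ranges overlapped each other. The group means were 0.84 ± 0.34 (SD, n = 2) in premir miR-10b without replicate 2, 0.65 ± 0.15 (SD, n = 3) in antimir control and 0.27 ± 0.20 (SD, n = 3) in antimir-10b.

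The repressor mean gave most of that difference. In premir miR-10b without replicate 2 it was -0.67, with E2F7 at -0.98 and E2F8, which was not called and lay low, at -0.36. The activator mean was 0.17, in which E2F1 (0.59) and E2F2 (0.49) were higher and E2F3 (-0.56) lower than in premir control. In antimir control the repressor mean was -0.49 and the activator mean 0.16, and in antimir-10b they were -0.31 and -0.05.

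**Figure D3:**
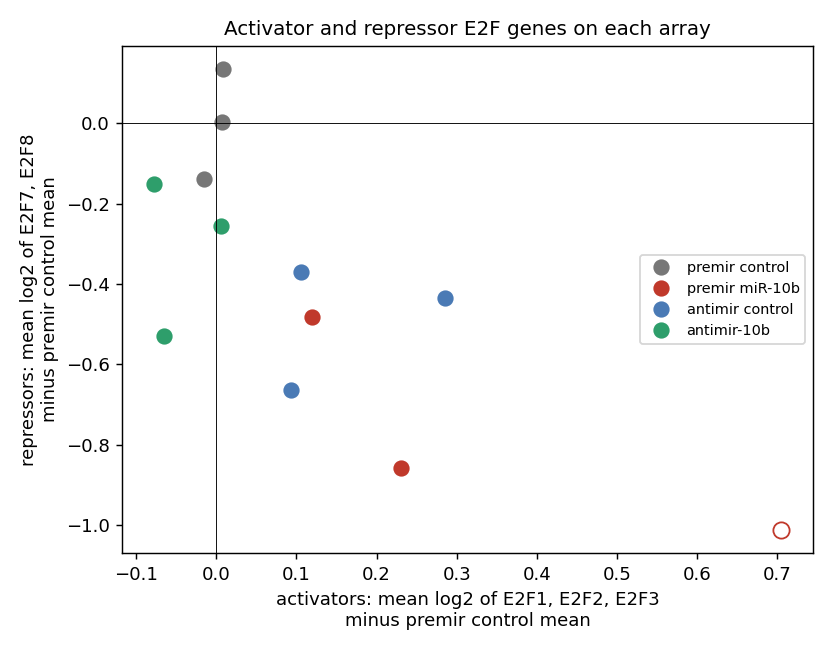
Each array placed by the mean log2 level of the activators E2F1, E2F2 and E2F3 (horizontal) and of the repressors E2F7 and E2F8 (vertical), both relative to the premir control mean; the open circle is premir miR-10b replicate 2. Premir miR-10b and antimir control arrays lie to the lower right of premir control, and the antimir-10b arrays lie below it with activator values from -0.08 to 0.01.

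Genes that act around the E2F family were counted from lists of regulators, partners and targets. The pocket proteins RB1, RBL1 and RBL2 had changes from -0.18 to -0.01 after premir miR-10b with 11 arrays, and 0 of 3 were called. With 12 arrays they ran from -0.57 (RB1) to 0.15 (RBL1), again with 0 called. Of 7 measured G1 cyclins and CDKs, 1 fell and 0 rose, where 0.484% of all features were called lower with 11 arrays and 0.0806% with 12. That gene was CDK6, a kinase that phosphorylates the retinoblastoma protein, with -1.12 ± 0.15 (SE) and a limma adjusted p of 0.00166 with 11 arrays, and 0.0215 with 12. CDK6 read 9.62, 9.91 and 9.73 in premir control, 8.57, 8.63 and 8.69 in premir miR-10b and 9.09 to 9.52 over the antimir arrays, so premir miR-10b lay below every other array. Of 5 measured CDK inhibitors 0 were called, and CDKN1A, the p53-induced inhibitor p21, had 0.44 with a limma adjusted p of 0.501 with 11 arrays, and 0.96 with 0.448 with 12, where premir miR-10b replicate 2 read 12.19 against 9.95 to 10.95 on the others. Of 6 MuvB genes with MYBL2, the complex that works with E2F4 and B-MYB, 0 were called, and MYBL2 had 0.53 with a limma adjusted p of 0.219 with 11 arrays, and 0.29 with 12. MYBL2 lay low, at 5.19 to 5.96 on the 11 arrays, where the undetected second E2F6 probe read 4.88 to 5.06. Among 11 partners of E2F6 and 6 genes of E2F stability and the checkpoint kinases 0 were called with 11 or 12 arrays. The medians were -0.07 and -0.07 with 11 arrays, where the median over all features was 0.00. With 12 arrays they were 0.05 and -0.04, where it was 0.05, so the sign for the E2F6 partners turned.

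Of 24 measured G1 to S genes known as E2F targets, 1 rose after premir miR-10b with 11 arrays, 0 fell and 23 were not called. The median change was 0.06, with 16 positive, where all features had a median of 0.00 and 50.6% positive. Of all features 0.23% were called higher in that comparison. UHRF1, which maintains DNA methylation behind the replication fork, rose by 0.65 ± 0.13 (SE), with a limma adjusted p of 0.0327. Under the authors' scaling it had 0.68 and a limma adjusted p of 0.145 with the same 11 arrays, so the call was lost and 0 of the 24 were called. With 12 arrays UHRF1 had 0.15 and an adjusted p of 0.788, and its level on premir miR-10b replicate 2 was 9.62 against 11.15 and 11.13 on replicates 1 and 3. With 11 arrays UHRF1 also rose between the control oligos, antimir control over premir control, by 0.97 ± 0.12 (SE) with a limma adjusted p of 0.00267, and the 6 antimir-arm arrays read 11.35 to 11.54 against 10.36 to 10.66 in premir control, where 0.173% of features were called higher. That call was kept under the authors' scaling, at 0.87 with a limma adjusted p of 0.0424. After premir miR-10b with 12 arrays the list had 0 called, a median of -0.12 and 11 of 24 positive, where all features had 0.05 and 54.9% positive. The sign of the list median thus turned with premir miR-10b replicate 2. MCM6, a subunit of the replicative helicase, had 0.47 with 11 arrays and 0.54 with 12 and was not called. After antimir-10b 0 of the 24 were called, with a median of -0.09 and 9 positive, where the median over all features was 0.00 and 50.3% were positive. Under the authors' scaling the list median was 0.04 and that of all features 0.06, so its sign turned. Between the control oligos the list median was 0.13 with 19 positive, where all features had a median of 0.01 and 52.0% positive, and under the authors' scaling the list median was 0.05 and that of all features -0.03.

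**Figure D4:**
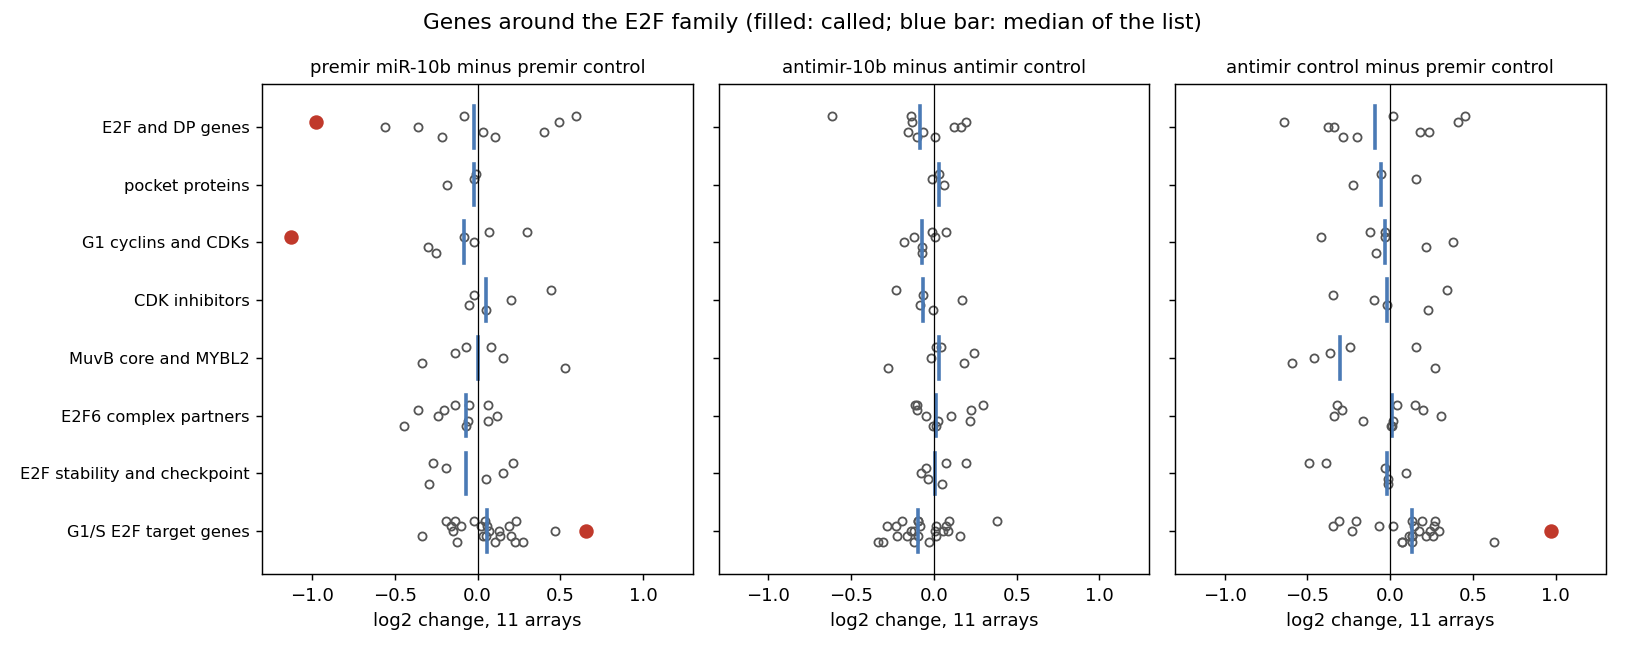
Log2 change with 11 arrays of every measured gene on each list, in 3 comparisons; filled points were called by limma and blue bars are list medians. The filled points are E2F7, CDK6 and UHRF1 after premir miR-10b and UHRF1 between the control oligos.

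Genes with the levels most like those of E2F7 and E2F1 over the 11 arrays were found by the root mean square difference of mean-centred log2 levels among 11724 other genes. For E2F7, whose own root mean square deviation was 0.374, they were the circadian repressor gene PER2 (0.121), the fatty acid elongase gene ELOVL2 (0.139) and DENND11 (0.145), where the median gene was at 0.409. PER2 had means of 8.65 in premir control, 7.87 in premir miR-10b, 8.17 in antimir control and 8.43 in antimir-10b, the same order as E2F7. For E2F1, with a root mean square deviation of 0.341, they were SPR, the sepiapterin reductase gene (0.202), TMEM63A (0.208) and the receptor gene CD40 (0.208), less close than those of E2F7. These genes were chosen for their likeness, so their values are a description.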

How the data were processed

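Total RNA was extracted with Trizol and labelled with the Illumina TotalPrep kit, per the labels. For each probe and array, the deposited non-normalized file holds a linear bead signal intensity and a detection p-value. The deposited scaled values are the same signal intensity times 1 constant per array (0.927 to 1.12), as comparing both files showed. Scanning software is not given in the sources used here. In R 4.3.3, limma 3.58.1 neqc estimated background through detection p-values, used an offset of 16, applied quantile normalization and took log2. Probes detected at p under 0.05 on at least 3 arrays (21195) were kept, and the probe with the highest mean stood for each symbol, giving 17369 features. Of the probes 30113 had 1 symbol, 8 several and 17110 none. A model of 4 group means (lmFit, eBayes, two-sided) was adjusted by Benjamini-Hochberg, and calls are at an adjusted p under 0.05. The model was also run on simulated data with independent normal noise, 1 variance per feature and no outlying array. That run cannot show how premir miR-10b replicate 2 or unequal group variances affect the calls.

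The 10 genes and the lists were chosen with earlier results of these data known. Named genes are all members, called list genes or at most 2 per list with the smallest p, and the 3 nearest profiles of E2F7 and E2F1. Alternatives were other scalings, filters, variances, blocks and left-out arrays. The 11-array versions of the scalings, filters and variances, and premir miR-10b against antimir control, were added after the data had been seen. Promoter sequences are RefSeq's.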

Additional observations from a re-analysis of the deposited data

Results flagged for a closer look

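E2F1 differed between the premir and the antimir arm by the test of the difference itself, with a premir effect minus antimir effect of 1.21 on the log2 scale with 11 arrays and a limma adjusted p of 0.0363. Its changes within the arms were 0.59 and -0.61, neither called alone. The difference includes the gap between the control oligos, antimir control minus premir control, which was 0.45. The E2F1 probe reads close to the background on all arrays, and its part in the result was not tested.

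E2F7 was picked out by the same test in the opposite direction, with a difference of -1.17 with 11 arrays and a limma adjusted p of 0.0450. Its changes within the arms were -0.98, called, and 0.19, not called. Here the gap between the control oligos, which the difference includes, was -0.64.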

How the results depend on the processing

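With 12 arrays 0 members were called in any comparison. After premir miR-10b the count was 5 with array weights (E2F1, E2F2, E2F3, E2F4 and E2F7, with E2F3 at -0.73, opposite in sign to its 12-array change) and 0 to 1 over left-out arrays. For the difference between the effects it was 5 with array weights and 0 to 2 over left-out arrays. Between the control oligos it was 1 (E2F7) with array weights and 1 (E2F7) with the compared groups alone, with 12 and with 11 arrays. With 11 arrays the count after premir miR-10b was 1, and 0 under the authors' scaling or median centring, where E2F7 had -0.85 and -0.86. Over left-out arrays it was 0 without premir control replicate 2 or 3, and 1 in the other fits that left 2 premir miR-10b arrays. No count is given without premir miR-10b replicate 1 or 3. There a single premir miR-10b array is left and is assumed to vary like the other groups. The 11-array difference between the effects had 2 calls and kept both in 2 of 21 alternatives. It had 0 under the authors' scaling, median centring or no detection filter, 1 with no background correction, the strict detection filter, every probe tested alone, the replicate block, trended and robust variances or array weights, and 0 to 4 over left-out arrays, 4 without premir miR-10b replicate 1. Antimir-10b gave 0 in all 22 alternatives of each set. The difference of activators and repressors after premir miR-10b was 1.14 with 12 arrays, 1.43 with the strict filter (E2F1 and E2F8 left out) and 0.84 to 1.40 over left-out arrays, and with 11 arrays 0.84 and 0.60 to 1.09. The main fit did not pair samples of the same replicate number. The correlation of their deviations was over 0.1 in 6 of 18 pairs of arrays, from -0.27 to 0.36, and in 9 of 36 pairs with different numbers. Without the premir miR-10b group it was over 0.1 in 5 of 9 same-number pairs (median 0.16) and in 5 of 18 others (median -0.05). Whether same-number samples share an effect was not tested. With the replicate block E2F7 had -0.98 and an adjusted p of 0.0499 after premir miR-10b with 11 arrays. The fit by compared groups alone was not made for the difference between the effects, which uses all groups. Where a count changed, the cause was not tested.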

Other observations

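E2F5 was among the genes that separated the premir arm from the antimir arm on the 11 arrays. Its levels were 9.35, 9.35 and 9.22 in premir control and 9.65 and 9.18 in premir miR-10b, all above antimir control (9.03 at the median, 9.05 at the highest) and antimir-10b (8.93, 8.78 and 9.05). Under the authors' scaling the arms overlapped, with E2F5 at 586.3 on premir miR-10b replicate 3 and 644.1 on antimir control replicate 3. Antimir control minus premir control was -0.28 with a limma adjusted p of 0.491 with 11 arrays, so the difference was not called. On premir miR-10b replicate 2 E2F5 read 6.95. The separation on the 11 arrays was not particular to E2F5. The MuvB gene LIN54 read 7.16 to 7.60 in the premir arm and 6.68 to 6.99 in the antimir arm. SKP2, from the list of E2F stability genes, read 9.05 to 9.53 and 8.57 to 8.93. The share of all features that separated in this way was not counted.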
